A study of Rattus norvegicus with 8 samples.

Results

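RGD1566401 is a long noncoding RNA gene on rat chromosome 6, and the RefSeq annotation of the GRCr8 assembly gives this symbol, together with Gtl2, as an older name of Meg3 (gene ID 500717). The gene was selected on its read abundance, and its members were all polyadenylation sites that the deposited table assigned to the symbol RGD1566401. There were 90 such sites of 73922 in the table, of which 84 lay on the plus strand and 6 on the minus strand, and they belonged to 1 of 12255 genes. The sites were measured by whole transcriptome termini site sequencing (WTTS-seq), a method that counts where poly(A)-tailed RNA ends. The tissue was the hypothalamus of adult male rats of the Long-Evans strain, 8 in all. By their labels, 4 had diet-induced obesity after free access to a high fat diet and 4 were controls on standard chow, with brain tissue taken after 36 days. Feeding was the only difference between the groups that the labels name, no genetic change was involved, and each library stands for 1 rat. The libraries held 1417531 to 1957726 mapped reads.

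Meg3 is transcribed from the maternal chromosome of the Dlk1-Dio3 domain, an imprinted region in which the paternal chromosome expresses the protein genes Dlk1, Rtl1 and Dio3 and the maternal chromosome expresses noncoding RNA. The RNA is spliced, polyadenylated and largely retained in the nucleus, and it is well known from brain and pituitary. The same strand continues downstream into further maternal noncoding transcripts that host small nucleolar RNAs and one of the largest clusters of microRNAs in mammals. A microRNA is a short RNA that pairs with target messages mainly through its seed, bases 2 to 8.

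The start of the gene is shown because it is the annotated origin of the transcripts whose ends are counted below. RefSeq places the first base of Meg3 in the 300-base window chr6:134273806-134274105 (GRCr8, plus strand), which holds 250 bases before the start and 50 bases after it. Capitals mark a cyclic AMP response element (CRE), the letters TGACGTCA, and a TATA box, the letters TATATAA.
Meg3 promoter: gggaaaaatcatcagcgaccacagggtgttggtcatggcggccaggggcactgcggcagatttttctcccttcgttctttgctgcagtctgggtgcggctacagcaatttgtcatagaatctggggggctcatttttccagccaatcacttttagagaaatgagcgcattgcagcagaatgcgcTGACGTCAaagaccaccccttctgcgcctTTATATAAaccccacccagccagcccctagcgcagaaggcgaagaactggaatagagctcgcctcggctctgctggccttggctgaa
On either strand the CRE letters were present in 1.83% of the 33469 promoter windows of the same length in the RefSeq table, and the TATA letters in 3.93%. The CRE match began 66 bases before the start. The TATA letters matched on both strands in overlapping positions, of which the first began 37 bases before the start. The letters CCAAT were present once, as in 37.5% of all windows, and the GC box letters GGGCGG were not in this window but were in 33.1% of all windows. These matches are descriptions of the sequence, and no binding was measured.

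Some sites in and behind the gene carried the names of microRNA genes. The mature sequences of the 4 microRNA genes on this strand with the most bearing on the values below are shown with their seeds in capitals. Mir770 lies inside the span of RGD1566401, Mir1188 and Mir341 had the most reads of the microRNA names downstream, and Mir665 had the largest difference between the groups.
rno-miR-770-5p: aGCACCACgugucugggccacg
rno-miR-770-3p: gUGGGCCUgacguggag
rno-miR-665: aCCAGGAGgcugaggucccuua
rno-miR-341: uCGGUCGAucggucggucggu
rno-miR-1188-5p: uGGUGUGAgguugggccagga
rno-miR-1188-3p: cGAGGCUCcccaccaca
In GRCr8 these lie on the plus strand at chr6:134298094-134298115, chr6:134298129-134298145, chr6:134321733-134321754, chr6:134347871-134347891, chr6:134348163-134348183 and chr6:134348201-134348217, in the order shown. The 6 seeds all differed from each other. The reads counted here are 3′ ends of polyadenylated RNA near these genes and not mature microRNAs.

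RGD1566401 was the named gene with the most reads in the hypothalamus of these rats. Its 84 plus-strand sites held 526048 reads, which was 3.94% of all reads. It ranked first in 6 of 8 libraries and second, behind the mitochondrial 16S ribosomal RNA gene Rnr2, in control libraries 3 and 4. Over all libraries it had 1.25 times the reads of Rnr2, 2.84 times those of Copg2, which encodes a coatomer subunit, and 3.32 times those of Mbp, a main protein of myelin. These levels are a description, since the gene was selected on them. The next lncRNA genes by reads were LOC108351197 and Bc1, the latter a short RNA of dendrites, over which RGD1566401 had 29.0 and 32.8 times as many reads. Of 15 well-known lncRNA names, Miat, Snhg11 and Gas5 were listed, with 158, 36.1 and 244 times fewer reads. Meg3, also among the 15, is RGD1566401 itself, and the remaining names, Malat1 and Neat1 among them, were not listed. Ranks and shares among lncRNAs therefore hold only for the lncRNA genes named in the data. RGD1566401, with both strands, made up 57.1% to 73.7% of the reads at lncRNA sites in a library.

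The main question was whether diet-induced obesity changed this RNA. As a share of all mapped reads, RGD1566401 took 3.17%, 3.81%, 2.33% and 3.96% in the control libraries, listed in the order of their numbers 1 to 4, and 5.004%, 3.81%, 3.77% and 5.37% in those of the obesity group, in the same order. Obesity libraries 1 and 4 were above every control library, control library 3 was below every other library, and the groups overlapped. The 95% Wilson intervals of these shares were at most 0.0668 percentage points wide, so counting error was small beside the spread between rats. The mean was 3.31% ± 0.741 (SD, n = 4) in control and 4.49% ± 0.82 (SD, n = 4) in obesity. Compared by the library number that the labels give in both groups, obesity was higher by 1.58 times for number 1, 1.62 times for number 3 and 1.36 times for number 4, and the ratio for number 2 was 1.00.

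**Figure D1:**
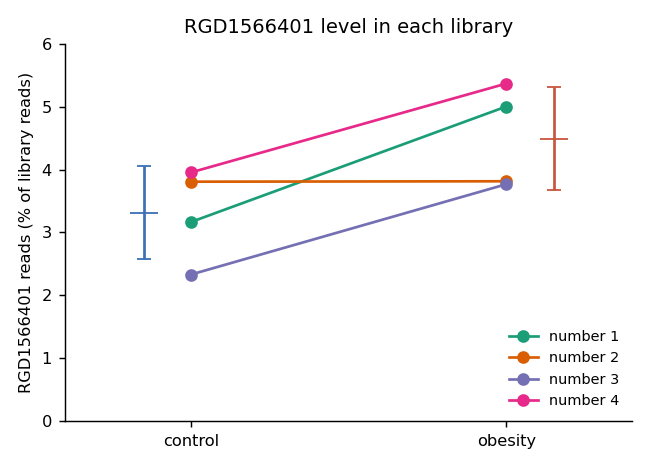
RGD1566401 reads as a percentage of all mapped reads, with 1 point per library, a line joining libraries of the same number, and a bar for each group mean with its SD (n = 4). Numbers 1, 3 and 4 were higher in obesity, number 2 stayed at 3.81%, and the groups overlapped.

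The difference in the gene total did not pass the threshold. The log2 fold change of obesity against control was 0.48 (SE 0.21, n = 4 per group, edgeR quasi-likelihood test), which is 1.398-fold, with an unadjusted p of 0.0367 and an adjusted p of 0.921 over all genes. At the threshold, an adjusted p of 0.1, this fit called 0% of the 12255 genes, and 627 of them had p under 0.05 before adjustment. With the library number as a block the log2 fold change was 0.49 (SE 0.12), the unadjusted p 0.000481 and the adjusted p 0.113, where 0.277% of genes passed. RGD1566401 ranked 51 of 12255 genes by the p of the blocked fit and 447 without the block. The call turned on the method and on number 2. With the block, DESeq2 in place of edgeR gave an adjusted p of 0.0203, and edgeR without both libraries of number 2 gave a log2 fold change of 0.64 with an adjusted p of 0.0019. Number 2 is the pair with a ratio of 1.00. Leaving out number 1, 3 or 4 instead, blocked edgeR gave log2 fold changes of 0.39, 0.42 and 0.52. Their adjusted p values were 0.455, 0.543 and 0.605, all above that of the full blocked fit. The share of all genes that passed was not counted for blocked DESeq2 or for the fits with a number left out. Without control library 3 the unblocked log2 fold change was 0.35.

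The tissue was bulk, so a difference in the number of cells that express the RNA and a difference in RNA per cell cannot be told apart. Of 12 hypothalamic peptide markers 10 were listed, and their summed level was 1237 to 1667 CPM (read counts scaled to the TMM-adjusted library size) in control and 999.7 to 1275 in obesity. Astrocyte markers, 7 of 7 listed, summed to 3429 to 4635 CPM in control and 2529 to 3944 in obesity. Both sums were lower in obesity for 4 of 4 numbers. The sum of 9 of 10 listed neuron markers was 5920 to 6337 CPM in control and 5023 to 6401 in obesity. Oligodendrocyte markers, 8 of 8 listed, summed to 17203 to 22668 CPM in control and 13330 to 20998 in obesity. Fitted log2 fold changes were above 0 for 3 of 10 hypothalamic, 2 of 7 astrocyte, 3 of 9 neuron and 0 of 8 oligodendrocyte markers. Their medians were -0.27, -0.19, -0.15 and -0.22 in that order, beside 0.00 for all genes, so all 4 lists leaned lower in obesity. In each of these lists 0 markers passed (edgeR). Of the anterior pituitary markers 4 of 6 were listed, with sums from 40.6 to 90.0 CPM in control and 8.85 to 187.5 in obesity, and Prl and Tshb were not listed. Pomc is in both the hypothalamic and the pituitary list, so the pituitary sum is not a measure of pituitary tissue alone. Of the choroid plexus markers 1 of 3, Ttr, was listed, at 98.0 CPM in obesity library 4 and 0 to 1.52 in the other 7 libraries. Without obesity library 4, one of the 2 with the highest RGD1566401 share, the unblocked log2 fold change of the gene total was 0.42 (unadjusted p 0.115, edgeR). A like drop followed without obesity library 1, the other of the 2, where Ttr was at 0 CPM. That fit gave 0.38 (unadjusted p 0.107, edgeR). The part of these cell types in the RGD1566401 values was not tested.

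The 3′ ends of RGD1566401 were spread over 31.3 kb but concentrated in a short stretch. The plus-strand sites ran from 133659859 to 133691128 on Rnor_6.0, and RefSeq gives Meg3 a length of 32194 bases in GRCr8. From 133677743 to 133681583, a stretch of 3.84 kb or 12.3% of that span, 30 sites held 95.04% of the gene's reads. The 29 sites before this stretch held 2.85%, and the 25 sites after it held 2.12%. The last site of the gene held 0.197%, so most counted ends lay before it. Sites were not classed here as exonic or intronic.

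**Figure D2:**
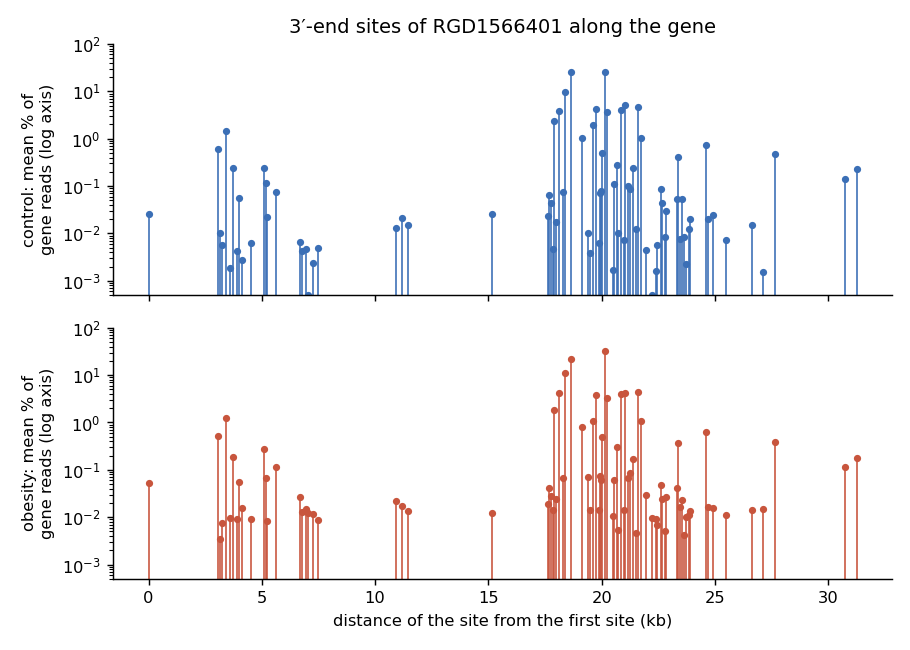
Mean percentage of the gene's plus-strand reads at each of the 84 sites (log axis) against distance from the first site in kb, for 4 control and 4 obesity libraries. The tall sites stand between 17.9 and 21.7 kb in both groups, and the 3 tallest are the same.

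Site size was very uneven. The sites ranged from 33 to 156935 reads over the 8 libraries, with a median of 142.5 beside 57 for all sites of the table, and 40 sites had fewer than 100 reads. At 51 sites every library had a read. The 3 sites with at least 5% of the reads held 63.8%, the 13 with at least 1% held 93.9%, and the other 71 together held 6.13%. A site was 8 to 548 bases wide, and neighbouring sites were 127 bases apart in the median.

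The site with the most reads lay at chr6:133679978-133680020 (Rnor_6.0, plus strand), held 29.8% of the gene's reads and ranked 3 of all sites in the table. It had 9504, 8682, 6995 and 8887 CPM in the controls and 18567, 9278, 14943 and 14705 CPM in obesity, again by number. Every obesity library but the second was far above the control range of this site, and obesity library 2 was just below control library 1. The log2 fold change was 0.76 (SE 0.24, edgeR), with an unadjusted p of 0.00681 and an adjusted p of 1.00, and the blocked fit gave 0.72 (SE 0.16, adjusted p 0.197). Without both libraries of number 2, the blocked fit gave an adjusted p of 0.00102. Without number 1, 3 or 4 instead, the blocked edgeR fit gave adjusted p values of 0.778, 0.533 and 0.501. The share of all sites that passed was not counted for the fits with a number left out.

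The site at chr6:133678352-133678899 was the widest of the gene and held 23.6% of its reads. It had 5388, 10759, 5324 and 13667 CPM in control and 7354, 9275, 6401 and 16104 in obesity. Library number 4 was highest in both groups, and the groups overlapped almost completely. The log2 fold change was 0.16 (SE 0.35, edgeR), with an unadjusted p of 0.666, and it was -0.19 without obesity library 4.

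The site at chr6:133678195-133678314 lay just before it and held 10.4%. It had 2843, 2777, 2596 and 4317 CPM in control and 5422, 3128, 4594 and 6419 in obesity. For each of the 4 numbers the obesity library was higher, and control library 4 lay above obesity library 2. The log2 fold change was 0.64 (SE 0.27, edgeR), with an unadjusted p of 0.0312 and, with the block, an adjusted p of 0.304, which became 0.0141 without number 2. Without number 1, 3 or 4 instead, the blocked edgeR fit gave adjusted p values of 0.931, 0.728 and 0.787.

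Of all 84 plus-strand sites, 0 passed an adjusted p of 0.1 without the block and 0 with it (edgeR), and DESeq2 without the block also gave 0. Of all 73922 sites, 0.00135% passed without the block and 0.00541% with it. Fitted log2 fold changes were above 0 at 65 of the 84 sites (77.4%) beside 52.4% of all sites, with a median of 0.36 beside 0.05. Among the 13 sites with at least 1% of the reads, 12 were above 0, and the exception, at 133679463, had a log2 fold change of -0.31 (unadjusted p 0.493, edgeR). An unadjusted p under 0.05 was reached at 16 sites (19.05%, all higher in obesity) beside 3.14% of all sites, and with the block at 18 (21.4%, 17 higher) beside 6.09%. The sites share the transcripts of 1 gene and are not replicates. At 6 sites (7.14%) the groups did not overlap, beside 3.11% of all sites.

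The second question was whether the choice among 3′ ends differed between the groups. Usage is the share of the gene's plus-strand reads at a site. The leading site took 31.2%, 22.7%, 28.9% and 22.01% of the reads in control and 37.3%, 24.1%, 40.03% and 27.9% in obesity. It was higher in obesity for each of the 4 numbers, but obesity libraries 2 and 4 stood below controls 1 and 3. The mean was 26.2% ± 4.52 (SD, n = 4) in control and 32.3% ± 7.55 (SD, n = 4) in obesity, and the difference of 6.15 percentage points gave p = 0.229 in a 2-sided exact permutation test (0.429 adjusted over 3 indices). Over the 4 same-numbered pairs the exact sign-flip p was 0.125, the smallest that 4 pairs allow. The site with 23.6% of the reads went the other way in 4 of 4 pairs, at 17.7%, 28.2%, 21.96% and 33.9% in control and 14.8%, 24.1%, 17.1% and 30.5% in obesity.

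The read-weighted mean position of the 3′ ends did not differ detectably. It lay 19.2 kb ± 0.189 (SD, n = 4) from the first site in control and 19.3 kb ± 0.178 (SD, n = 4) in obesity, a difference of 0.0428 kb (exact permutation p = 0.857, adjusted 0.857). The effective number of sites, the exponential of the Shannon entropy of usage, was 10.9, 10.8, 10.97 and 9.29 in control and 9.85, 11.6, 8.30 and 8.55 in obesity. Obesity libraries 3 and 4 were below every control, obesity library 2 was above every control, and the difference of the means was -0.937 (exact permutation p = 0.286, adjusted 0.429).

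**Figure D3:**
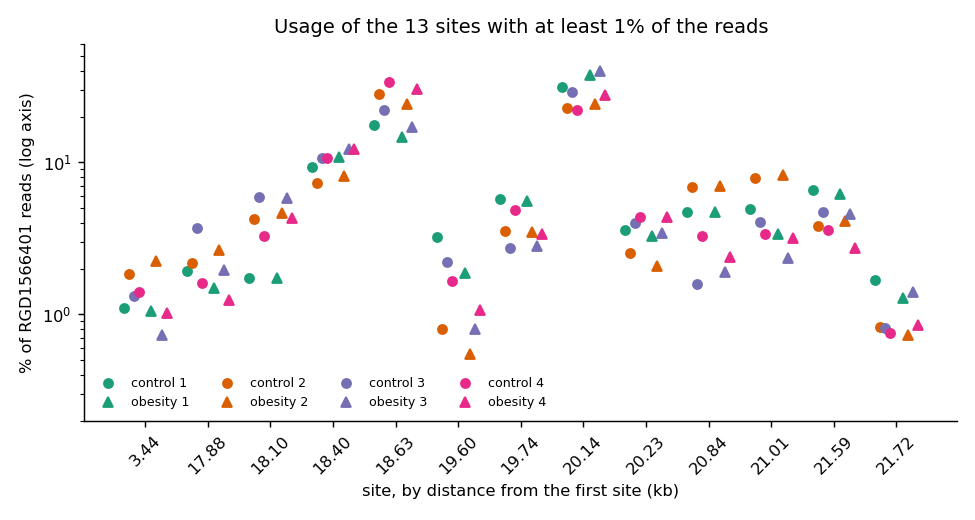
Percentage of RGD1566401 reads (log axis) at the 13 sites with at least 1%, ordered by distance from the first site in kb, with circles for control, triangles for obesity and 1 colour per library number. The leading site at 20.14 kb took 22.01% to 40.03%, and at 10 of the 13 sites the control and the obesity library with the most CPM have the same number.

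A test of usage over the whole gene gave answers that depended on the block and on how site values were pooled. Without the block the Simes p of edgeR's diffSpliceDGE was 0.0186 (adjusted 1.00 over 7996 genes with 2 or more sites), and 0% of genes passed. With the block the Simes p was 9.3e-05 (adjusted 0.187), where 0.0125% of genes passed. The F test over sites with the block, an alternative added after the data were seen, gave an adjusted p of 0.00567, where 0.138% of genes passed. Leaving out both libraries of number 3 brought the adjusted Simes p of the blocked fit to 3.39e-05. Leaving out number 1, 2 or 4 instead gave unadjusted Simes p values of 0.0659, 0.0595 and 0.0263, and none of these passed after adjustment.

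1 minor site had the smallest usage p of the gene in both fits of all 8 libraries, and it alone set both Simes p values. Each is the p of this site multiplied by 84, the number of sites tested. The site at chr6:133679266-133679291 had 2, 3, 11 and 0 reads in control and 125, 49, 13 and 35 in obesity, 238 in all or 0.0452% of the gene. It was higher in obesity for numbers 1, 2 and 4, and for number 3 it had 8.08 CPM in control and 6.58 in obesity. Its usage relative to the rest of the gene had a log2 fold change of 2.16 with the block (adjusted p 0.0324, edgeR diffSpliceDGE) and 2.202 without it (unadjusted p 0.000221, adjusted 1.00). Over all sites 0.00683% passed this test with the block and 0% without it. It was the 1 site of RGD1566401 that passed in the blocked usage fit.

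At 3 further minor sites, 3.57% of the 84, the usage ranges of the groups did not overlap, all higher in obesity, beside 2.79% of 58155 sites in genes with 2 or more sites, so the count was near the background. The site at 133681805 had 0, 5, 3 and 1 reads in control and 35, 28, 8 and 13 in obesity. The site at 133682075 had 0, 0, 0 and 1 reads against 20, 2, 3 and 7, and the site at 133686960 had 0, 2, 1 and 0 against 28, 10, 4 and 4. These counts are small beside the 33024 to 94091 reads of the gene in a library, and obesity library 1 was highest at each. With the block their usage had unadjusted p values of 0.00125, 0.00887 and 0.00769, and none of the 3 passed after adjustment.

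The usage profiles also followed the library number. When the 84-site usage profiles were compared by the Hellinger distance, which runs from 0 for the same profile to 1 for profiles with no site in common, the nearest library of the other group had the same number for 8 of 8 libraries. Same-numbered libraries were 0.0579 to 0.123 apart, and libraries of different numbers 0.136 to 0.22 apart, so the ranges did not overlap. Of 654 genes with at least 10 sites and 2000 reads, 18.2% had 8 of 8, and 7.03% kept every same-number distance below every other. Libraries were also ranked at each site, by CPM rather than usage. At 48 of 83 sites without a tie (57.8%) the top control and top obesity library shared a number, beside 39.2% of all sites. The labels do not say what libraries of the same number share.

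At some minor sites most reads came from 1 number. These were chosen after their values were seen, by the ratio of the mean usage in that number to the mean of the other 6 libraries among sites of at least 100 reads. At 133681022 number 2 had 244 reads in control and 137 in obesity, and the other libraries had 2 to 11, a ratio of 28.4, so that number 2 held 90.1% of the site's reads. At 133679844 number 3 had 77 and 157 reads, control library 4 had 47, the ratio was 11.4 and number 3 held 74.3%. At 133677638 number 3 had 45 and 66 reads, 72.5% of the site, and the ratio was 10.3. At 133681129 number 4 had 124 and 249 reads, 75.8% of the site, the others had 5 to 28, and the ratio was 6.32. Among the 13 sites with at least 1% of the reads, 10 had their highest CPM in the same number in both groups. Their ratios, each for the number with the highest usage in control, were 1.18 to 2.27. At 6 of these 10 both libraries of that number were above the other 6 libraries in usage, with the largest ratio of 2.27 for number 2 at 133680869. At the other 4 they were not. These included the leading site, with a ratio of 1.24 for number 1, where obesity library 3 had the highest usage. They also included the site at 133678258, with 1.18 for number 3, although number 4 had the highest CPM there in both groups.

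**Figure D4:**
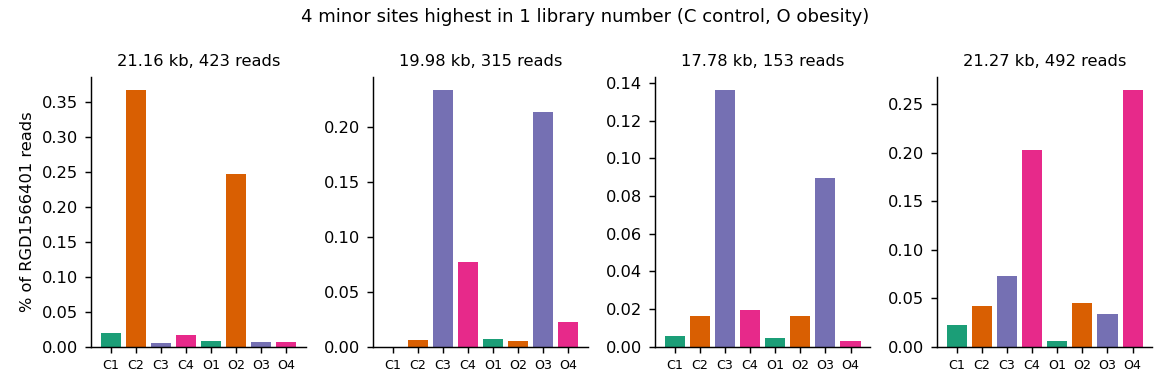
Percentage of RGD1566401 reads at 4 minor sites in control (C) and obesity (O) libraries 1 to 4, with 1 colour per library number and each panel titled by distance from the first site in kb and total reads. In each panel the 2 tallest bars are the control and the obesity library of 1 number.

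The table also assigned 6 minus-strand sites to RGD1566401. Together they held 171, 246, 48 and 289 reads in control and 838, 191, 428 and 451 in obesity, which was 0.145% to 0.945% of the gene's reads. The largest, at chr6:133667460-133667468, had 123, 151, 36 and 163 reads in control and 581, 90, 356 and 252 in obesity. Number 2 was lower in obesity and the other numbers were higher. Its log2 fold change was 1.30 (SE 0.49, edgeR), with an unadjusted p of 0.0189 and an adjusted p of 1.00, and the blocked fit gave 1.22 (adjusted p 0.589). All 6 minus-strand sites had fitted log2 fold changes above 0, from 0.32 to 2.56, and 0 passed in either fit, with 2 at an unadjusted p under 0.05 without the block. How the strand of a read was assigned is not given in the sources used here.

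Within 1 Mb on either side of the gene 19 other genes had sites, and 0 of them passed with or without the block (edgeR). Upstream, Dlk1, the paternally expressed Notch-like ligand of the domain, had 43.9, 52.2, 42.3 and 69.2 CPM in control and 45.8, 35.7, 52.7 and 51.7 in obesity. The groups overlapped, with obesity library 2 below the controls and control library 4 above the obesity libraries, and its log2 fold change was -0.16 (SE 0.28, edgeR, unadjusted p 0.591). The transcription factor gene Yy1 averaged 73.5 CPM, the tryptophanyl-tRNA synthetase gene Wars 67.5, the pseudogene LOC103692705 36.3, Begain, which encodes a protein of the postsynaptic density, 34.1 and the mitochondrial carrier gene Slc25a29 17.0. Their log2 fold changes ran from -0.75 for LOC103692705 to 0.41 for Slc25a29. Of the 8 other domain names fixed for this region, Dlk1 was the only one the table listed under its own symbol, and Meg3 is RGD1566401 itself.

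From the site of Mir770 onward, 18 sites on the same strand carried microRNA names, from 10 genes, with 4510 reads. Mir345, also on this strand but 942.1 kb before the last RGD1566401 site, had 2, 2, 4 and 2 reads in control and 13, 5, 8 and 5 in obesity, and the obesity libraries were all above the controls. Its log2 fold change was 1.51 (SE 0.92, edgeR), with an unadjusted p of 0.12 and an adjusted p of 0.928. The site of Mir770, inside the span of RGD1566401, had 78, 85, 105 and 101 reads in control and 85, 141, 137 and 98 in obesity, and its log2 fold change was 0.25 (SE 0.27, edgeR, unadjusted p 0.372). Mir1188 averaged 230.9 CPM, Mir341 48.9 and Mir377 14.4, with log2 fold changes of 0.29, 0.31 and 0.34. None of them was resolved from 0 beyond the spread between rats. Mir665 had 0, 2, 2 and 1 reads in control and 7, 13, 29 and 14 in obesity, and its groups did not overlap. Its log2 fold change was 3.40 (SE 0.88, edgeR), with an unadjusted p of 0.00124 and an adjusted p of 0.921, and an adjusted p of 0.132 with the block, and it was named for its size after the values were seen.

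Behind RGD1566401 the plus strand went on with 85 sites that had no gene, from 133694387 to 133883464, with 27473 reads. In GRCr8 the genes that follow Meg3 on this chromosome are the microRNA genes and Rtl1, then the lncRNA gene LOC102555254 with Mir370 and small nucleolar RNA genes. The summed level of the 85 sites was 1154, 2172, 2543 and 2278 CPM in control and 1443, 2386, 2350 and 2293 in obesity. Number 1 was low in both groups, and the other 6 libraries lay close together. The mean was 2037 CPM ± 608.8 (SD, n = 4) in control and 2118 ± 451.7 (SD, n = 4) in obesity, and the levels were summed after the sites were seen, so no test was made. The median log2 fold change of these sites was 0.08, with 46 of 85 above 0, 0 that passed and 1 with an unadjusted p under 0.05 (edgeR). The largest, at chr6:133759989-133760041, had 7551 reads and a log2 fold change of -0.46 (SE 0.38, unadjusted p 0.245). This site is part of the sum, and its CPM was lower in obesity for numbers 1, 3 and 4 and higher for number 2. The summed level without this site was not taken.

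**Figure D5:**
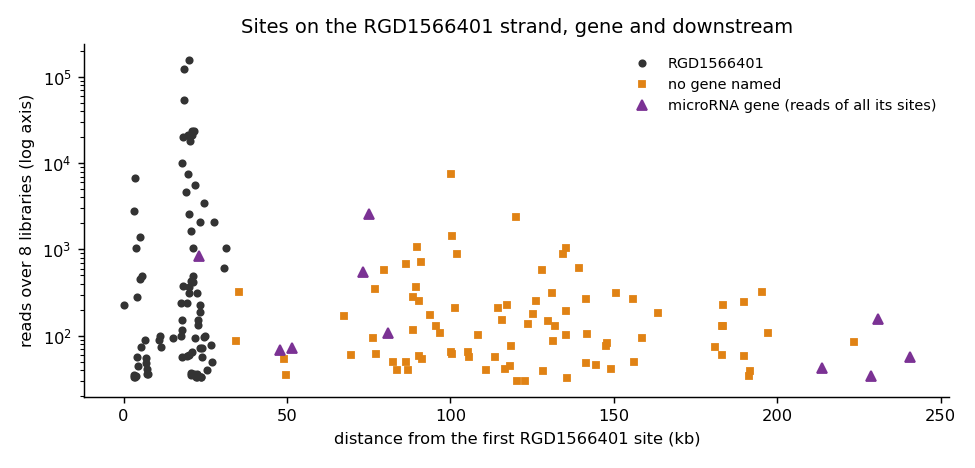
Reads over the 8 libraries (log axis) at plus-strand sites of RGD1566401, at sites without a gene and for microRNA genes, against distance from the first RGD1566401 site in kb. The gene's sites reach 156935 reads within the first 31.3 kb, and the largest site without a gene, at 100.2 kb, has 7551.

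A list of 35 other imprinted genes was compared beside RGD1566401, and 24 were in the table. In them 9 log2 fold changes were above 0 and 15 below, with a median of -0.05 beside 0.00 for all genes. By edgeR 0 of the 24 passed in either fit, and 1 had an unadjusted p under 0.05 without the block. That gene was Igf2, a growth factor gene expressed in the choroid plexus and meninges, with 16.9 CPM ± 9.79 (SD, n = 4) in control and 5.14 ± 3.73 (SD, n = 4) in obesity and an adjusted p of 0.28 with the block. Copg2 had 15121 CPM ± 2469 (SD, n = 4) in control and 18113 ± 3786 (SD, n = 4) in obesity, higher for 4 of 4 numbers. Peg3, a zinc finger gene of the paternal chromosome, had 3559 ± 702 CPM (SD, n = 4) and 3055 ± 609.2 (SD, n = 4), lower for 4 of 4 numbers. Their log2 fold changes were 0.26 (unadjusted p 0.204) and -0.22 (unadjusted p 0.294).

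Over the 8 libraries the genes with the pattern most like RGD1566401 were sought among 6137 other genes with a mean of at least 20 CPM, by Pearson's correlation of log2 CPM. Schip1, which encodes a scaffold protein of the axon initial segment, stood highest at 0.984. It had 411.5, 430.9, 300.7 and 478.0 CPM in control and 612.2, 462.7, 453.4 and 681.9 in obesity, with the same low library (control 3) and the same 2 high ones (obesity 1 and 4). Chsy3, a chondroitin sulfate synthase, followed at 0.967, then Dedd, a death effector domain protein, at 0.965, RGD1560883 at 0.962 and Nrg3, a neuregulin, at 0.961. The most opposite were Cds1, a CDP-diacylglycerol synthase, at -0.987, Cox8a, a subunit of cytochrome c oxidase, at -0.972 and the ribosomal protein gene Rpl12 at -0.966. After the group means were taken out, the correlation was 0.973 for Schip1 and -0.977 for Cds1. The points share their libraries and their scaling, the median over the genes was -0.01, and 38 genes exceeded 0.9. Dlk1 had a correlation of 0.244 and Mir1188 of 0.533.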

How the data were processed

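Hypothalamic RNA of 8 rats was sequenced by WTTS-seq. Per the labels, RNA was purified with an RNeasy Micro kit, fragmented, enriched for poly(A), reverse transcribed, size selected and amplified. The values deposited by the authors are raw read counts per polyadenylation site on Rnor_6.0, not normalized. The submitters' processing notes name Bowtie2 2.2.3 and Rnor_6.0, and the other steps are not given in the sources used here. Site totals began at 30 reads, which shows a cutoff before deposition. A line without a site entered neither library sizes nor tests. Its entry for control library 1 was 1710888, which equals the summed reads of all sites in that library, as in a line of column totals. The reads carry no molecular identifiers, so intervals cover counting error only.

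Gene totals were sums over the sites on the strand with most of the gene's reads. They were tested with the quasi-likelihood test of edgeR 4.0.16 (robust, TMM) in R 4.3.3, sites likewise, and site usage with diffSpliceDGE, each adjusted by Benjamini-Hochberg over the whole table. DESeq2 1.42.0 was an alternative. CPM of a site is relative to the reads of all sites, and CPM of a gene to the reads of all gene totals, both scaled by TMM. The usage indices were compared by 2-sided exact permutation over 70 arrangements, where the smallest p is 0.0286. Thresholds were an adjusted p of 0.1 for fits and 0.05 for permutations. The models were tested on simulated data.

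Sites with at least 5% of the gene's reads are given in every library, the others by range and count unless they passed a threshold. Neighbours within 1 Mb are named from 10 CPM. The 5 most and 3 least correlated genes with at least 20 CPM are named. Other named items were chosen after their values were seen. The gene and the lists were chosen with earlier results of these data known.

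Both groups carry library numbers 1 to 4. Deviations from the group means had correlations of 0.224 to 0.33 for libraries that share a number and of -0.174 to 0.0468 for the rest. The number was therefore also fitted as a block. The main fits and the exact permutations did not use it, so their p values leave this likeness out of account. The block is an alternative, and its value stands beside a result where it changed a call. In 28 chi-square comparisons no 2 libraries agreed within sampling noise (lowest 3.3 per site).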

Additional observations from a re-analysis of the deposited data

Results flagged for a closer look

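Within each group of 4 libraries, 38 sets of values were checked for a library far from the other 3, and 4 stood apart where chance gives about 1 in 20. Control library 1 had a mean 3′ end position of 19.5 kb from the first site, while the other controls lay between 19.1 and 19.2 kb. Control library 1 also used the site at 133681583 for 1.67% of the gene's reads, against 0.757% to 0.82% in the other controls. Control library 4 had an effective number of 9.29 sites, against 10.8 to 10.97 in the other controls. Obesity library 1 had a summed level of 1443 CPM over the 85 plus-strand sites without a gene behind RGD1566401, where the remaining 3 of that group had 2293 to 2386, and control library 1 was the lowest of its group at 1154 CPM.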

How the results depend on the processing

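Over 205 combinations of a result and an alternative, 186 were classed as unchanged. Fold changes and usage indices had to keep their direction and their side of the threshold, and the Simes p its side only. Counts of calls had to stay equal, and list medians had to stay within the SD between libraries, whatever their sign. With the library number as a block, DESeq2 in place of edgeR took the gene total past the threshold at a log2 fold change of 0.50, which made 1 of the 2 domain genes called, and the F test in place of Simes gave a usage p of 2.84e-06; both alternatives were added after the data were seen. Leaving out libraries, with or without the block, gave a log2 fold change of the gene total from 0.35 to 0.64, 0 to 3 called RGD1566401 sites, 0 to 1 called domain genes, 0 to 2 called imprinted genes, a median of the imprinted list from -0.0771 to 0.0295 and a usage Simes p from 4.24e-09 to 0.299. All calls gained in this way came with the block and without number 2 or number 3. For the fits with libraries left out and for blocked DESeq2, the share of all genes or sites that passed was not counted. Whether the gained calls were particular to RGD1566401 is therefore not known. The difference in mean 3′ end position ran from -0.0281 to 0.136 kb and the log2 fold change of the site at 133678489 from -0.19 to 0.45, both across 0. The cause of these shifts was not tested. The block changed no call of the gene total, of the site counts, of the lists or of the usage indices, while it added the 1 site named above to the usage calls. With 4 rats per group, sites of few reads rest on wide spread, and A-rich internal priming could not be checked without the Rnor_6.0 sequence.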

Other observations

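The reads at lncRNA sites other than RGD1566401 took 1.71%, 1.76%, 1.75% and 1.79% of the control libraries and 1.97%, 1.81%, 1.92% and 1.92% of the obesity libraries. These shares did not overlap, whereas with RGD1566401 the lncRNA share was 4.09% to 5.77% in control and 5.64% to 7.32% in obesity and overlapped. The next lncRNA gene by reads, LOC108351197, had 1072, 438, 1875 and 941 CPM in control and 3233, 2517, 1410 and 1792 in obesity. Bc1, which follows it, had 2004, 1370, 1847 and 1760 in control and 1565, 966, 1284 and 755 in obesity. The part of single genes in the lncRNA share was not tested, and no other class of genes was compared. On the minus strand behind RGD1566401, 7 sites without a gene summed to 49.0, 35.7, 22.02 and 30.96 CPM in control and 158.5, 35.3, 105.3 and 75.7 CPM in obesity, with fitted log2 fold changes above 0 at 7 of 7 sites and 0 that passed an adjusted p of 0.1 (edgeR, 1 with an unadjusted p under 0.05). Number 2 was level in both groups there, as it was for the plus-strand total of the gene. Both sums were formed after the values were seen, and no test was made.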
